A study of Sus scrofa with 6 samples.

Results

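The RAB GTPases are the subject here: the small GTP-binding proteins that mark membranes inside the cell. Genes were taken by name, as those whose pig Ensembl symbol is RAB, a number and at most 1 further letter, a rule that uses no measured value. The rule found 51 genes among the 25880 gene rows of each count file, 14857 of which had a symbol. RAB1B, RAB5B, RAB18, RAB21, RAB24, RAB32, RAB36 and RAB40B have a symbol in the reference name tables but were matched to no gene row, and they were not analysed here.

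RNA-seq libraries, amplified from small inputs of whole polyadenylated RNA (Smart-seq2), came from pig (Sus scrofa) oocytes at metaphase II, the stage at which a mature egg waits for sperm. Oocytes were taken with their cumulus cells from follicles of 3 to 6 mm in slaughterhouse ovaries and matured in vitro. One group of 3 libraries was the control, and the other group of 3 was matured with malathion, an organophosphate insecticide, at 1 mM, diluted into the medium from a DMSO stock of 0.75 M. The labels give neither the solvent of the controls, the number of oocytes in a library, nor the origin of the replicates. The spread between these libraries, on which each p-value rests, may therefore be technical.

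A RAB protein switches between an inactive form bound to GDP and an active form bound to GTP. Exchange factors (GEFs) load GTP, GTPase-activating proteins (GAPs) end the signal, and the active form recruits effectors such as tethers, motors and fusion factors. Prenyl groups added with the help of an escort protein anchor the RAB in its membrane, and GDI proteins take it out again. In the oocyte this traffic carries the cortical granules, secretory vesicles that dock under the plasma membrane and release their content at fertilisation to block further sperm. RAB3A and RAB27A have been studied in that release in mouse eggs, and vesicles that carry RAB11A organise actin in mouse oocytes.

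Gene counts per library ranged from 25816040 to 42312341. A count of 0 therefore allows a level of up to 0.0709 to 0.116 CPM (gene counts scaled to a library total of 1000000), taking 3 counts as the limit, and Wilson 95% intervals of a RAB level were at most ± 15.6 CPM wide, counting error only. Markers of the oocyte summed to 31815 to 85969 CPM in control 1, control 2, malathion 1 and malathion 2, and to 4679 and 6163 CPM in control 3 and malathion 3, the libraries with replicate number 3. BTG4 alone held 7709.7 to 44538 CPM in the first 4, and single oocyte markers went the other way: MOS (1458 CPM), TDRD1 (1634 CPM) and ZP2 (2158 CPM) were highest in malathion 3 and OOEP (382 CPM) in control 3. Those 2 libraries also held the fewest detected genes (8171 and 7983 at equal depth, against 12211 to 14683). Of 16 matched cumulus and granulosa markers, 14 had counts; they summed to 430 to 741 CPM in the first 4 libraries and to 38.3 and 68.0 CPM in the replicate 3 libraries, most of it VCAN (286 to 424 CPM in the first 4) and KITLG (133 to 244 CPM), and CYP11A1 reached 81.6 CPM in malathion 2. AMH and AREG were at 0 and FSHR, HAS2 and PTX3 were at 2.16 CPM or less. All 7 of these markers that were tested had a higher fitted value after malathion (median log2 fold change 1.32, 0 called). Over all genes tested, 53.4% had a lower one and the median was −0.08. With library totals alone the median of the 7 was 0.58, beside −0.33 for all genes, and HAS2 stood at −0.011. CYP11A1, STAR, INHBA, FST and KITLG each turned below 0 when some single library was left out. In bulk libraries, fewer cells of a type and less RNA per cell cannot be told apart. No part of the results below was tested against these differences between libraries.

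Of the 51 RAB genes, 47 had at least 1 count and 27 were detected in every library. RAB17, RAB20, RAB37 and RAB39B had no count. At equal depth, 41, 46 and 30 RAB genes were detected in control 1, 2 and 3, and 36, 42 and 28 in malathion 1, 2 and 3. The median over the 6 libraries was at least 100 CPM for 8 genes, at least 10 CPM for 19 and at least 1 CPM for 30. CPM are not divided by transcript length, since no length was given, so the order below is one of read counts and not of molecules.

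**Figure D1:**
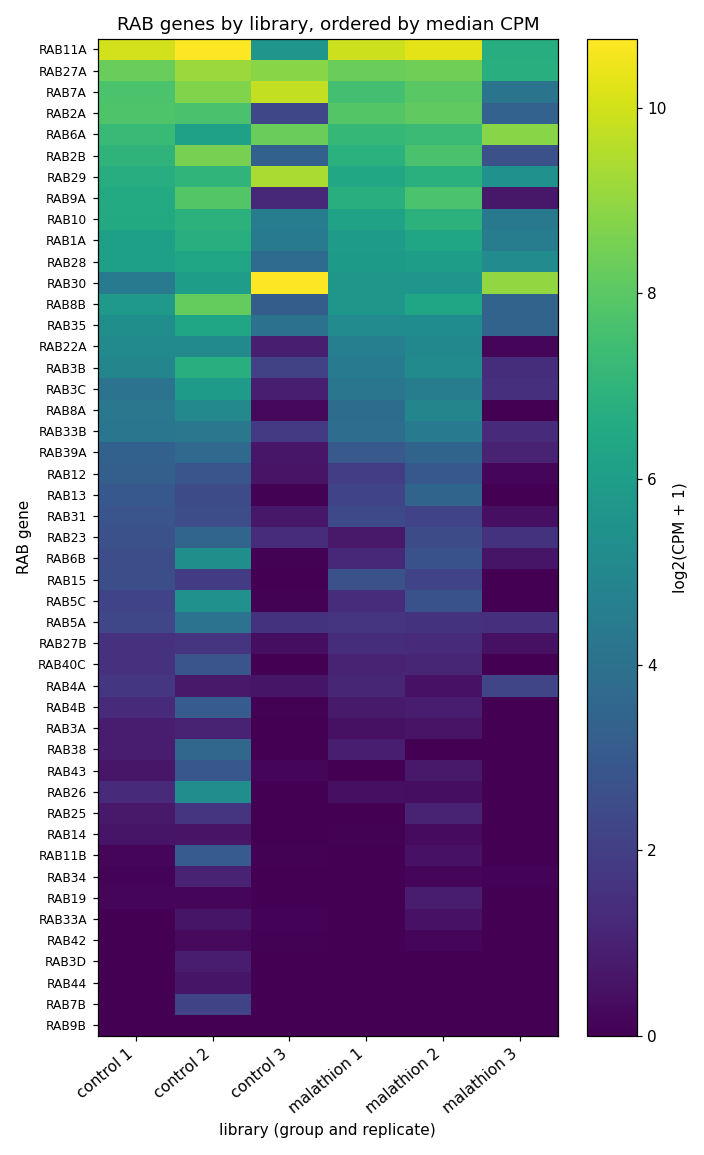
Level of the 47 RAB genes with counts, as log2(CPM + 1) in colour, with 1 column per library and genes ordered by their median CPM. RAB11A leads in 4 libraries, while RAB30 is the brightest gene in control 3 and malathion 3; RAB26, RAB5C and RAB6B are bright mainly in control 2.

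RAB11A (ENSSSCG00000032312), the RAB of recycling endosomes, had the highest median of the family at 1009 CPM. It stood at 1040.2, 1713 and 48.2 CPM in control 1, 2 and 3, and at 977, 1267 and 103 CPM in malathion 1, 2 and 3. Both replicate 3 libraries were thus far below the other 4, and the groups overlapped. RAB11A made up 34.9% to 37.5% of all RAB counts in those 4 libraries, against 1.16% in control 3 and 7.58% in malathion 3 (Wilson 95% intervals within ± 0.396 percentage points). Its near relative RAB11B had 203 counts in control 2 and at most 12 in any other library.

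RAB27A (ENSSSCG00000004612), which docks secretory granules at the plasma membrane, came next with a median of 331 CPM. Its values were 315, 553 and 449 CPM in control 1, 2 and 3, and 323, 339 and 109 CPM in malathion 1, 2 and 3. Unlike RAB11A, RAB27A was not low in control 3, and only malathion 3 stood below the rest. It ranked between 2 and 4 among RAB genes in each library, with 7.98% to 12.4% of RAB counts. RAB27A lay below RAB11A in 4 of 6 libraries and above RAB7A, the next gene, in 5 of 6.

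RAB7A (ENSSSCG00000011615), the RAB of late endosomes and lysosomes, had a median of 234 CPM. Control 1, 2 and 3 gave 209.6, 417 and 855 CPM, and malathion 1, 2 and 3 gave 183, 258 and 16.8 CPM. The highest and the lowest value both came from replicate 3 libraries. RAB2A (ENSSSCG00000006232), which acts between endoplasmic reticulum and Golgi, ranged over 202 to 276 CPM in 4 libraries and was low in control 3 (3.83 CPM) and malathion 3 (9.34 CPM). RAB7A was above RAB2A in 3 of 6 libraries, so these neighbours had no settled order.

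Further genes of the Golgi and the endosomes filled the next places. RAB6A (ENSSSCG00000014828), a RAB of retrograde traffic at the Golgi, stood at 152, 70.7 and 324 CPM in the control and 139.5, 159 and 449 CPM in the malathion libraries. RAB2B (ENSSSCG00000029544) stood at 127, 372 and 8.99 CPM and at 114, 202 and 5.41 CPM. RAB6A was thus highest where RAB2B was lowest, in the replicate 3 libraries.

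RAB29 (ENSSSCG00000026269), a RAB of the Golgi and stressed lysosomes, stood at 102, 128 and 672 CPM in the control and 85.4, 111 and 42.5 CPM in the malathion libraries. RAB9A (ENSSSCG00000012123), which returns receptors from late endosomes to the Golgi, lay between 95.1 and 231 CPM in 4 libraries but at 1.36 and 0.614 CPM in control 3 and malathion 3. RAB10 (ENSSSCG00000008573), an exocytic RAB, and RAB1A (ENSSSCG00000008359), which serves transport from endoplasmic reticulum to Golgi, closed the 10 highest with medians of 82.4 and 62.6 CPM. RAB10 ranged from 19.5 to 120.1 CPM and RAB1A from 20.5 to 107 CPM, with the replicate 3 libraries lowest for both. Neighbouring places from RAB7A to RAB10 kept their order in only 3 or 4 of 6 libraries, and RAB10 was above RAB1A in 5.

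RAB30 (ENSSSCG00000014900), a Golgi RAB named here after its values were seen, was placed 12 by its median of 57.8 CPM but led the family in both replicate 3 libraries. Its level was 1709.6 CPM in control 3 and 515 CPM in malathion 3, against 20.1 and 64.6 CPM in control 1 and 2 and 51.0 and 48.8 CPM in malathion 1 and 2. These levels were 41.1% and 37.8% of all RAB counts in control 3 and malathion 3 and at most 1.95% elsewhere. Both replicate 3 libraries were above the other 4 for 2 of 36 tested members, RAB6A and RAB30, against 1.79% of all genes tested. They were below the other 4 for 26 of 36 tested members (72.2%, against 83.8% of all genes tested).

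Across the 47 genes with counts, log2(CPM + 1) of control 1 correlated with malathion 1 at r = 0.986 and with malathion 2 at r = 0.988. Control 2 correlated with these 3 libraries at r = 0.903 to 0.918. For control 3 against malathion 3, r was 0.926, and for either of them against any of the remaining 4 it was 0.684 to 0.797. Genes of 1 library share its depth and amplification, so these values describe the libraries.

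Several RABs of low level were found mainly in control 2. RAB5C, a RAB of early endosomes, had 1148 counts there against a maximum of 155 in the others. RAB6B, a relative of RAB6A known from neurons, had 1095 against a maximum of 154. RAB38, known from melanosomes and other organelles related to lysosomes, had 286 counts there and at most 22 elsewhere. RAB7B had 96 counts in control 2 and 0 in each other library. Of the 36 members tested, 11 (30.6%) had over 50% of their summed CPM in control 2, against 22.0% of all genes tested, and 25 (69.4%) had their highest CPM there, against 54.7%.

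RABs of secretory granules were RAB27A, RAB27B, RAB3A to RAB3D, RAB26 and RAB37, of which RAB37 had no count. Their summed level was 365, 763 and 454 CPM in control 1, 2 and 3 and 364, 398 and 113 CPM in malathion 1, 2 and 3 (527 ± 209 and 291 ± 156, SD, n = 3 each). RAB27A held most of it in each library. Control 1 and malathion 1 were level, and the lowest malathion value came from malathion 3.

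RAB3B (ENSSSCG00000021036) and RAB3C (ENSSSCG00000031796), vesicle RABs known from regulated secretion, were the next most counted of this group. RAB3B stood at 29.2, 108 and 3.22 CPM in the control and 20.8, 34.2 and 1.63 CPM in the malathion libraries. RAB3C stood at 16.2, 60.0 and 0.882 CPM and at 17.8, 22.2 and 1.82 CPM. Both were highest in control 2 and low in the replicate 3 libraries.

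RAB27B (ENSSSCG00000035243), the paralog of RAB27A, lay between 0.305 and 2.10 CPM. RAB3A (ENSSSCG00000013897), the synaptic vesicle RAB, stood at 0.756 and 1.07 CPM in control 1 and 2, at 0.387 and 0.468 CPM in malathion 1 and 2, and at 0 counts in the replicate 3 libraries. RAB26 (ENSSSCG00000033691), a RAB of granule maturation, had 39 counts in control 1, 1023 in control 2, 9 each in malathion 1 and 2, and 0 in both replicate 3 libraries. RAB3D (ENSSSCG00000016928), found on granules of exocrine cells, had 22 counts in control 2, or 0.812 CPM (Wilson 95% interval 0.536 to 1.23), and 0 elsewhere. RAB26 and RAB3D passed the filter's minimum count in too few libraries to be tested, RAB26 with nearly all of its counts in control 2.

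**Figure D2:**
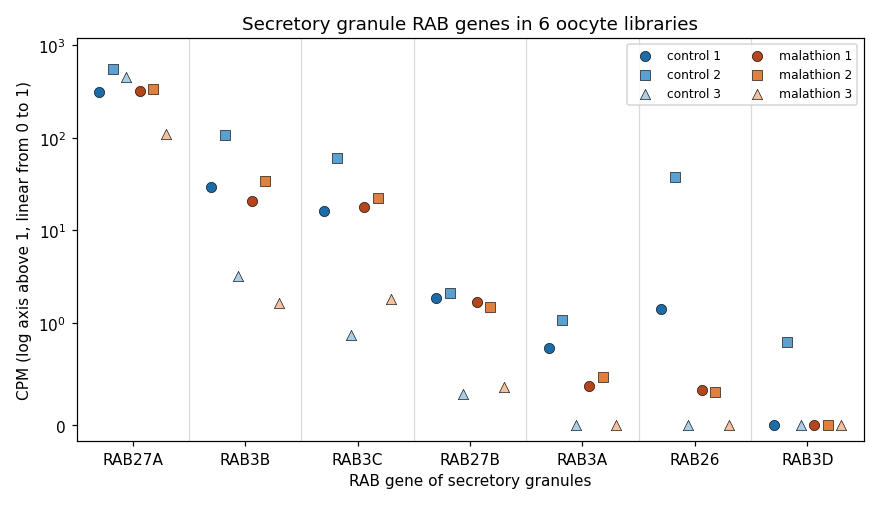
CPM of the 7 secretory granule RAB genes with counts, 1 point per library, on an axis that is logarithmic above 1 CPM and linear from 0 to 1. RAB27A lies between 109 and 553 CPM, RAB3B and RAB3C between 0.882 and 108 CPM, and the control 2 point is the highest for every gene shown.

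By role, RABs of plasma membrane delivery and recycling, led by RAB11A, summed to 1159.7 to 2262 CPM in controls 1 and 2 and malathion 1 and 2, but to 94.8 CPM in control 3 and 146 CPM in malathion 3. RABs of endoplasmic reticulum and Golgi summed to 616, 895 and 2069.9 CPM in the control and 616, 804 and 1005 CPM in the malathion libraries, and thus formed the main part in both replicate 3 libraries. RABs of late endosome, lysosome and autophagy summed to 416, 797 and 1529 CPM and to 381, 582 and 60.1 CPM. The 6 matched early endosome RABs, which leave out RAB5B and RAB21, summed to 2.25 to 98.2 CPM. RABs of cilium and other roles summed to 14.1 to 97.6 CPM.

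RAB5A (ENSSSCG00000037653), the regulator of early endosome fusion, stood at 3.85, 16.3 and 1.93 CPM in the control and 2.05, 2.02 and 1.75 CPM in the malathion libraries. RAB14 (ENSSSCG00000005514), of traffic between endosomes and Golgi, had at most 15 counts in a library. RAB8A (ENSSSCG00000013848), an exocytic RAB, lay between 13.1 and 32.2 CPM in 4 libraries, at 0.170 CPM in control 3 and at 0 counts in malathion 3. By median CPM, RAB8A was placed 18, RAB5A 28 and RAB14 38 in the family. RAB8B, the paralog of RAB8A, stood at 52.9, 293 and 7.87 CPM in the control and 50.8, 79.3 and 9.83 CPM in the malathion libraries.

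**Figure D3:**
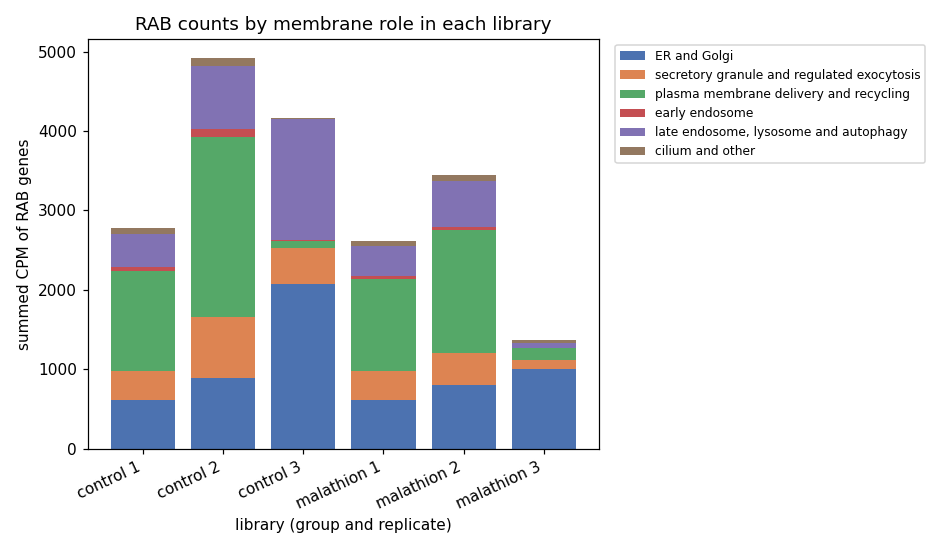
Summed CPM of RAB genes in each library, stacked by membrane role, with bars starting at 0. Recycling RABs form the largest block in 4 libraries and a thin one in control 3 and malathion 3, where RABs of endoplasmic reticulum and Golgi form the largest block; the family sums to 1362 CPM in malathion 3 and 4914 CPM in control 2.

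Malathion was compared with control to ask how it affected the mRNA stored in oocytes. Summed over the family, RAB counts were 2777, 4914 and 4165 CPM in control 1, 2 and 3 and 2612, 3446 and 1362 CPM in malathion 1, 2 and 3 (3952 ± 1084 and 2473 ± 1049, SD, n = 3 each). The 2 groups overlapped, since control 1 lay below malathion 2. The log2 ratio of the group means was −0.68, from −0.99 without malathion 2 to −0.38 without malathion 3, and −0.49 without control 2.

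Within pairs of libraries with the same number, most of the 19 RABs with a median of at least 10 CPM differed little in replicates 1. Their log2 ratio of malathion to control (CPM + 1) had a median of −0.17 and an SD of 0.39 there, against −0.08 and 0.35 for the 5134 genes at that level. Single values ran from −0.48 for RAB8A to 1.30 for RAB30. In replicates 2 the median was −0.40 and the SD 0.72, from −1.87 for RAB8B to 1.16 for RAB6A, against −0.07 and 1.07 for all such genes. In replicates 3 the median was −0.51 and the SD 1.72, from −5.59 for RAB7A to 1.41 for RAB28, against 0 and 2.11. A gene with 0 counts in both libraries of a pair has a ratio of exactly 0 here. The all-gene median of 0 in replicates 3 may be such a floor value. Each of the 19 RABs had counts in control 3, so the medians of replicates 3 are not a like comparison. No RAB of this level had ratios of the size of RAB7A in replicates 3 in either other pair.

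**Figure D4:**
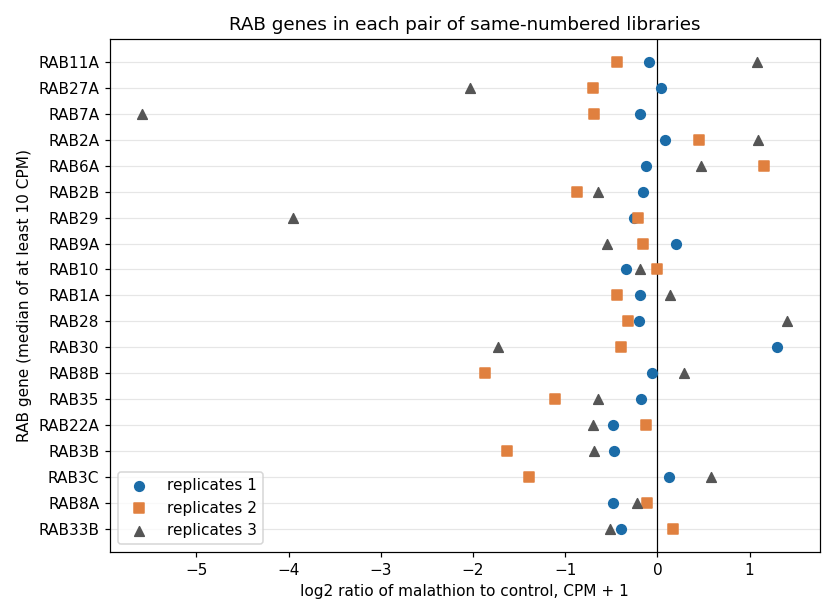
Log2 ratio of malathion to control, from CPM + 1, for the 19 RAB genes with a median of at least 10 CPM; each gene has 1 point per pair of same-numbered libraries. Points of replicates 1 lie near 0 except RAB30 at 1.30, and the points farthest from 0 are those of RAB7A at −5.59 and RAB29 at −3.95 in replicates 3.

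Over 3 against 3 libraries, 36 RABs passed the filter on low counts and were tested, 15 were not, and none was called (edgeR's quasi-likelihood test, adjusted over 10678 genes, threshold 0.05, smallest adjusted p 0.9998). No gene of the whole table was called either, a background of 0%. An unadjusted p under 0.05 was found for 0 of the 36 members, against 0.918% of all genes tested with a higher and 2.67% with a lower value after malathion. CPM of the groups did not overlap for 0 members, against 0.243% of all genes with malathion higher and 0.506% with malathion lower. DESeq2 called 0 members and 0 genes of the table. It gave no adjusted p for 6 members, RAB27A, RAB7A, RAB6A, RAB29, RAB4A and RAB30, and so could not have called them. An unadjusted DESeq2 p under 0.05 was found for 1 member, RAB43, and for 228 of 10678 genes. Unadjusted p under 0.05 was also given by edgeR to RAB43 with a block for replicate number, to RAB26 and RAB5A without both replicate 3 libraries, and to RAB26 and RAB7B without the filter. Each had a lower value after malathion. Over all genes, these fits gave such a p to 120 of 10678, 253 of 11637 and 989 of 16852. With 1 library left out, 2 members had it without control 3, malathion 1 or malathion 3, 3 without malathion 2, and 0 without control 1 or control 2. Over all genes it was 409 of 11655 without control 3, 363 of 11381 without malathion 1, 503 of 11165 without malathion 2 and 329 of 11662 without malathion 3.

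The fitted log2 fold change was below 0 for 25 of the 36 members (69.4%) and above 0 for 11, with a median of −0.40; over all genes tested, 53.4% lay below 0 and the median was −0.08. Fits used TMM factors, which scale libraries so that most genes agree, and these were 0.1407 in control 3 and 0.1382 in malathion 3 against at least 2.26 in the others. They raise the replicate 3 libraries against the rest, so a gene low there by CPM can be high in the fit. With library totals alone, 31 members lay below 0 and 5 above (86.1%, median −0.70), beside 66.3% and −0.33 for all genes. The RAB median was −0.14 without control 3, −0.97 without malathion 3 and −0.74 without malathion 2, where all genes had −0.19, −0.09 and −0.25. Without malathion 3, 7 members lay above 0 and 33 below. Each of the 36 intervals at 95% included 0, and standard errors (SE) ran from 0.91 for RAB3B to 2.88 for RAB30.

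**Figure D5:**
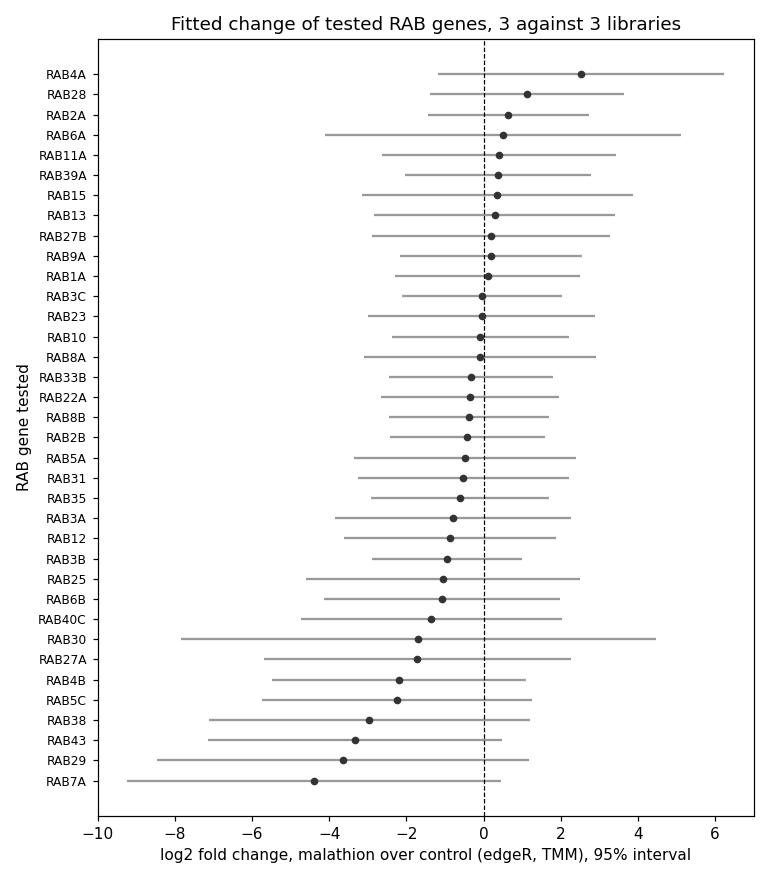
Log2 fold change of malathion over control for the 36 RAB genes tested, from edgeR with TMM factors; points are estimates and bars 95% intervals, with 3 libraries a group. Every bar crosses 0, and the lowest estimate is RAB7A at −4.39 and the highest RAB4A at 2.53.

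RAB7A had the smallest p of the members with a lower value, with a log2 fold change of −4.39 ± 2.26 (SE; edgeR adjusted p = 0.9998). Its estimate was −0.03 without control 3, which held 25194 of its counts, and −1.57 with a block for replicate number. RAB43, a Golgi RAB, had −3.32 ± 1.78 with 16, 176 and 4 counts in control 1, 2 and 3 and 0, 18 and 0 in malathion 1, 2 and 3. It stood at −2.47 without control 2. Without malathion 2 it stood at −8.54, but the malathion libraries then held 0 counts, so the size of that value is not measured. RAB29 had −3.65 ± 2.25 and turned to 1.72 without control 3. By CPM malathion 3 was its lowest library (42.5 CPM), but TMM-normalised it stood at 308 CPM, against 42.6 and 35.9 CPM in control 1 and 2. In 2 of these 3 genes the estimate thus rested on control 3.

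Among members with a higher value, RAB4A (ENSSSCG00000036039), of rapid recycling, had the smallest p, with 2.53 ± 1.73. It had 156 counts in malathion 3 and 12 to 62 in the other libraries, and stood at −2.11 without malathion 3. RAB28 (ENSSSCG00000022358), a RAB linked to cilia, stood at 65.5, 80.5 and 12.5 CPM in the control and 57.1, 64.3 and 34.9 CPM in the malathion libraries. Its log2 fold change was 1.12 ± 1.17, and −0.88 without malathion 3. RAB2A had 0.64 ± 0.98, from 0.31 to 1.14 when any 1 library was left out, so its sign did not turn there.

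Most of the other abundant members had estimates near 0 and wide errors. RAB11A had 0.39 ± 1.42, a positive sign that turned to −0.25 with library totals alone, and lay between 0.13 and 0.56 when 1 library was left out. RAB10 had −0.08 ± 1.07, RAB1A 0.11 ± 1.12, RAB9A 0.19 ± 1.10 and RAB2B −0.42 ± 0.94. RAB2B stood at −0.085 without control 2, −0.20 without malathion 3 and −0.71 without malathion 2. RAB6A had 0.50 ± 2.16, and its sign turned without malathion 3 (−3.68). RAB30 had −1.69 ± 2.88, and 6.57 without control 3. RAB6A also turned without control 1 (−0.05) or control 2 (−0.07), and RAB9A without control 3 (−0.25) or malathion 2 (−0.52). RAB10 turned without control 3 (1.01), malathion 1 (0.28) or malathion 2 (0.17), and RAB1A without control 1 (−0.27), control 2 (−0.25) or malathion 3 (−1.26).

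In the secretory granule group, 4 of 5 tested members lay below 0 and 1 above, with a median of −0.80. RAB27A had −1.72 ± 1.86 and turned to 1.30 without control 3. Its TMM-normalised levels were 132, 155 and 3192 CPM in control 1, 2 and 3, and 143, 127 and 786 CPM in malathion 1, 2 and 3. Malathion 3, the lowest library by CPM, was thus the highest malathion library once normalised. The turned sign therefore depends on the TMM factors, since by CPM malathion 3 lay below control 1 and 2. RAB3B had −0.95 ± 0.91, between −1.23 and −0.64 when 1 library was left out, and RAB3A had −0.80 ± 1.43, between −1.16 without control 3 and −0.44 without malathion 3. RAB3C had −0.03 ± 0.97 and RAB27B 0.20 ± 1.44; the first turned without control 2 (0.58), malathion 1 (0.13) or malathion 2 (0.08) and the second without control 1 (−0.03), control 2 (−0.14) or malathion 3 (−0.78). RAB5A, of the early endosome, had −0.48 ± 1.35 and RAB8A, of exocytosis, −0.09 ± 1.40. RAB5A turned without control 3 (0.60), malathion 1 (0.03) or malathion 2 (0.03), and RAB8A without control 1 (0.15), control 2 (0.31) or malathion 3 (0.49).

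Genes that regulate or read RABs showed no calls. For the escort, prenylation and extraction genes, 3 of 4 tested lay below 0 (median −0.51). GDI2 (ENSSSCG00000011137), which extracts RABs from membranes, stood at 108, 186 and 2.85 CPM in the control and 87.3, 96.6 and 0.614 CPM in the malathion libraries (log2 fold change −0.57 ± 1.00, from −0.93 without malathion 1 to −0.052 without malathion 3). CHM, the escort protein, had 0.01 ± 0.94, and RABAC1, a RAB acceptor, had −1.77 ± 1.67, with −0.52 without control 2 and −3.18 without malathion 2. GDI2 was thus low in both replicate 3 libraries, which lay below the other 4 for 83.8% of all genes tested and for 72.2% of tested RABs. CHM turned without control 1 (−0.15), control 3 (−0.08) or malathion 3 (−0.28).

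Of 28 GEF genes tested, 14 lay above and 14 below 0 (median −0.03), and of 29 GAP genes 13 and 16 (−0.07). TRAPPC3, a subunit of the TRAPP complexes, had 0.05 ± 1.2, and RABGEF1, an exchange factor for RAB5, 0.11 ± 0.95. DENND1C, a factor for RAB35, had −3.38 ± 1.79 with 72.8 CPM in control 2 and at most 2.77 CPM elsewhere, and turned to 0.30 without control 2. RABGAP1 had 0.04 ± 1.21 and TBC1D15, a GAP for RAB7, 0.74 ± 0.97, from 0.42 without control 2 to 1.15 without control 1. TBC1D12 had 2.44 ± 1.70 and EVI5 2.30 ± 1.45. Without malathion 3, TBC1D12 turned to −1.52 and EVI5 stood at 0.62. The estimates nearest 0 turned as well: TRAPPC3 without control 3 (−0.44), malathion 1 (−0.43) or malathion 2 (−0.22), RABGEF1 without control 3 (−0.27), malathion 1 (−0.13) or malathion 2 (−0.08), and RABGAP1 without control 1 (−0.20), control 2 (−0.33) or malathion 3 (−0.68).

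Among 31 effector genes, 15 lay above and 16 below 0 (median −0.03). Against 0.918% of all genes tested with a higher and 2.67% with a lower value, 1 effector gene had an unadjusted edgeR p under 0.05. That gene was PIK3C3, the lipid kinase of endosomes, at 86.2 CPM in control 3 and at most 7.86 CPM elsewhere (−6.15 ± 1.98, and 0.37 without control 3). RIMS2, an effector of RAB3 at release sites, stood at 163, 399 and 1289 CPM in the control and 154, 189 and 37.5 CPM in the malathion libraries (−4.51 ± 2.53, and 0.61 without control 3). SYTL3, an effector of RAB27, had −0.19 ± 1.26 and turned without control 1 (0.08), control 2 (0.34) or malathion 3 (0.38). KIF20A, a motor that binds RAB6, had 0.49 ± 1.24, from 0.0040 without control 3 to 1.64 without control 1. RIMS2 and RAB7A were both highest in control 3.

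For cortical granule content and fusion, 8 of 20 tested genes lay above 0 and 12 below (median −0.14), where 53.4% of all genes tested lay below. An unadjusted edgeR p under 0.05 was found for 2 of the 20, against 0.918% of all genes tested with a higher and 2.67% with a lower value. SNAP29, a SNARE of membrane fusion, had −6.20 ± 2.22, from −9.55 without malathion 3 to −1.45 without control 3. It had 16, 154 and 286 counts in control 1, 2 and 3 and 0, 4 and 7 in malathion 1, 2 and 3. Its CPM did not overlap between the groups, as for 0.506% of all genes tested with malathion lower. Its median was 0.371 CPM, and the malathion values rest on few counts. CALR, the calcium-binding chaperone calreticulin, had −3.47 ± 1.56, and 0.33 without control 3. PADI6, an oocyte protein of the cytoplasmic lattices, had 0.09 ± 1.54 and turned without control 3 (−0.41), malathion 1 (−0.46) or malathion 2 (−0.14). ZP2, the egg coat protein that a cortical granule protease cleaves, had 5.18 ± 2.84 with 2158 CPM in malathion 3, and 0.67 without that library. None of these 4 passed the test adjusted over all genes.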

How the data were processed

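RNA was measured in 6 libraries, 3 control and 3 malathion, made from polyadenylated RNA by a modified Smart-seq2 method with TruSeq DNA library kits, per the labels' protocols. The authors deposited 1 column of raw read counts per Ensembl gene for each library. The submitters' processing notes name STAR 2.5.3a, HTSeq 0.9.1 and DESeq2 1.20.0. Genome build, annotation and strand setting are not given in the sources used here, so no coordinates are printed, and overlapping, antisense and near-identical genes cannot be told apart. The 5 rows of reads given to no gene (36.7% to 42.6% of a file) were left out of totals and tests.

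CPM used gene totals. Malathion and control were compared in edgeR 4.0.16 (R 4.3.3) by the two-sided quasi-likelihood F test. Counts were scaled by TMM factors, genes were kept by filterByExpr with a total of at least 15 and its minimum count at 10, and p-values were adjusted over 10678 genes after Benjamini and Hochberg. SE came from the F statistic. The fit was also run on simulated counts with known changes. Those libraries shared a common mean profile, with none set apart as the replicate 3 libraries are here. That run therefore does not show how the fit behaves on such libraries. Alternatives were library totals, DESeq2 1.42.0, no filter, the replicate number as a block, and libraries left out. The members and lists were chosen with earlier results of these data known. Text genes were the 10 members of highest median CPM, the secretory granule members with counts, RAB5A, RAB7A, RAB11A, RAB8A and RAB14, the 3 smallest p in each direction, and from each partner list the 2 of smallest p and 2 of highest median, except 1 gene that is not reported here; other members are named for the pattern of their counts, after it was seen. Control and malathion share replicate numbers in their titles. Deviations from the group means correlated at r = 0.466, 0.467 and 0.573 in replicates 1, 2 and 3, all over 0.1. An alternative fit therefore took the numbers to pair libraries, while p-values, SE and intervals of the main fit took them as unpaired. The block moved RAB7A from −4.39 to −1.57 and RAB30 from −1.69 to −0.08. Both replicate 3 libraries stand apart from the rest, which can by itself raise these correlations, so they do not settle whether the numbers mark pairs. Control 1 correlated across all genes tested with malathion 2 (r = 0.986) as closely as with malathion 1 (r = 0.979). No 2 libraries were alike within sampling noise (smallest chi-square per degree of freedom 47.2 over 15 pairs).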

Additional observations from a re-analysis of the deposited data

How the results depend on the processing

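No RAB gene was called under any alternative run, though DESeq2 gave no adjusted p for 6 members and could not have called them. Over all genes, 60 were called without the filter and 0 to 3 when 1 library was left out (3 without malathion 1 or without malathion 2). The RAB median log2 fold change of −0.40 became −0.70 with library totals, −0.50 without the filter, −0.31 without both replicate 3 libraries and −0.16 without these and control 2 (then 1 control library is assumed to vary like the others), and ran from −0.97 to −0.14 when 1 library was left out. Members above 0 numbered 5 with library totals and 7 to 16 when 1 library was left out. The log2 ratio of summed CPM became −1.39 with TMM-normalised CPM and −1.46 with DESeq2 size factors for the family, and −1.68 and −1.76 for secretory granule RABs. TMM-normalised family sums were 1163, 1376 and 29599 CPM in control 1, 2 and 3 and 1158, 1288.5 and 9855 CPM in malathion 1, 2 and 3. Those of secretory granule RABs were 153, 214 and 3223.5 CPM and 161, 149 and 814 CPM. The normalised ratios thus rested mostly on the replicate 3 libraries.

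Signs turned for 5 of 20 named members with library totals (RAB11A −0.25, RAB9A −0.048, RAB1A −0.28, RAB27B −0.28, RAB28 −0.021). With the replicate number as a block, the pairing turned RAB9A (−0.16) and RAB3C (0.076), and it changed no call. Without both replicate 3 libraries, 9 turned (RAB11A −0.0093, RAB29 0.017, RAB10 0.094, RAB1A −0.062, RAB27B −0.087, RAB8A 0.012, RAB4A −0.66, RAB28 −0.017, RAB30 0.63). Without control 2 as well, 11 turned (RAB27A 0.028, RAB7A 0.011, RAB6A −0.075, RAB2B 0.24, RAB1A −0.017, RAB3C 0.25, RAB27B −0.29, RAB8A 0.11, RAB4A −1.40, RAB28 −0.16, RAB30 1.27). With DESeq2 or no filter 0 turned. When 1 library was left out, ranges spanned 0 for RAB27A (−3.07 to 1.30), RAB6A (−3.68 to 4.74), RAB29 (−5.32 to 1.72), RAB9A (−0.52 to 0.81), RAB10 (−0.97 to 1.01), RAB1A (−1.26 to 1.33), RAB3C (−0.28 to 0.58), RAB27B (−0.78 to 0.91), RAB5A (−2.94 to 0.60), RAB8A (−1.03 to 0.49), RAB4A (−2.11 to 4.0), RAB28 (−0.88 to 2.01) and RAB30 (−7.60 to 6.57). The cause was not tested. Levels per kilobase were not run, since no transcript length was given. The 10 highest members shared 8 genes with an order by mean CPM and 10 with an order without both replicate 3 libraries. The median 95% interval of the tested genes was ± 3.02 (log2) at a common biological coefficient of variation of 1.10.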
